A study of Mus musculus with 6 samples.

Results

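Rab GTPases are the small GTP-binding proteins that give each membrane compartment of the cell its identity. Rows of the deposited gene table whose symbol was Rab, a number and at most 1 letter were taken as the family, and 54 of 58 such rows had a mean of at least 10 normalized read counts over the 6 libraries, out of 28162 genes in all. Rab43 (mean 13.3) and Rab42 (13.4) lay just inside that limit, and Rab44 (6.83) and Rab19 (5.20) lay just outside it, together with Rab38 (2.58) and Rab25 (2.19). All 54 members also passed the filter on low values used for testing, a value of 10 or more in 3 or more libraries.

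The libraries came from ventral tissue of the lumbar spinal cord of SOD1G93A mice, which carry a mutant human superoxide dismutase transgene and model amyotrophic lateral sclerosis (ALS). Animals of the AAV-NDNF group (3 libraries) had received an adeno-associated virus carrying NDNF, a secreted neurotrophic glycoprotein, into the intrathecal space on postnatal day 74. Animals of the AAV-GFP group (3 libraries) had received the virus with green fluorescent protein by the same route on the same day, and tissue was taken on day 104 in both groups. Every animal carried the SOD1G93A transgene, so no comparison with healthy cord is possible here, and the sources used here give neither the promoter of either virus, the animals' sex nor the number of animals per library. The titles call the libraries biological replicates. Each held between 15335789 and 20060987 recovered reads.

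A Rab protein is loaded with GTP by an exchange factor, recruits effectors such as tethers and motors to its membrane, and is switched off by a GTPase activating protein. Prenyl tails hold it in the membrane, and GDP dissociation inhibitors extract the inactive form for another round. In neurons Rab3 proteins ride on synaptic vesicles and regulate transmitter release, whereas in phagocytes Rab5, Rab7 and their relatives drive the maturation of a phagosome into a degrading lysosome.

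Labels and tissue were checked first. Ndnf stood at 5286, 7077 and 674 normalized counts in the AAV-NDNF libraries 1 to 3, against 171, 128 and 158 in the AAV-GFP libraries, so the lowest AAV-NDNF library lay above each AAV-GFP library. Its log2 fold change was 4.27 (SE 0.85) with a limma adjusted p of 0.53, against 1.28e-08 without AAV-NDNF replicate 3 and 7.66e-05 in DESeq2. Sod1, whose reads can include those of the transgene, averaged 2143 ± 611 in AAV-NDNF and 2055 ± 251 in AAV-GFP libraries (SD, n = 3 each). The motor neuron genes Chat, Isl1, Mnx1, Slc5a7 and Prph had reads in every library. AAV-GFP replicate 2 stood apart in its dorsal horn neuron genes, which summed to 156 normalized counts there, against 372 to 596 in the AAV-NDNF libraries and 843 to 865 in the other AAV-GFP libraries. Values below are normalized counts in the order of replicates 1 to 3, and a log2 fold change subtracts the AAV-GFP mean of log2(normalized count + 1) from the AAV-NDNF mean and carries its standard error (SE). In bulk tissue, fewer cells of a type and less RNA per cell cannot be told apart.

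No Rab gene passed the test for a difference between the groups once p-values were adjusted over all 17480 tested genes. In limma the smallest Benjamini-Hochberg adjusted p among the 54 members was 0.997, so 0 were called, as were 0 of all genes (0%), and edgeR's quasi-likelihood test also called 0 members and 0 genes. A refit with DESeq2 on recovered reads called 0 members, against 0.315% of all genes. At an unadjusted limma p under 0.05 there were 4 members, or 7.41%, where the share of all tested genes was 4.68%. These 4 were Rab32, Rab7b and Rab31, lower in AAV-NDNF, and Rab3b, higher in AAV-NDNF, and edgeR and the DESeq2 refit brought up the same 4 genes. The set was not the same everywhere: 3 remained with upper quartile scaling, 2 without a filter, 1 with a replicate block and 0 when AAV-NDNF replicate 2 or AAV-GFP replicate 1 was omitted. In the authors' deposited table, Rab32 had an unadjusted DESeq2 p of 0.0533. In edgeR the share of all genes was 4.62% (3.56% lower, 1.06% higher), and in DESeq2 it was 4.43% (3.4% lower, 1.03% higher). The lower members made up 5.56% of the family against 3.53% of all genes, and the 1 higher member made up 1.85% against 1.15%. These are 3 genes and 1 gene, too few to set the family apart from the background, and the values below are therefore levels and spread rather than called changes.

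The 4 genes fall on the 2 sides of a contrast between synaptic Rabs and Rabs of phagosomes and lysosomes. These classes were drawn with earlier results of these data known, so where the 4 genes fall is a description only. For 3 of the 4, the letters of the promoter region are shown here, because these are the members with the smallest p that have a promoter entry. Rab7b has none. Each region runs from 250 bases before to 50 after the RefSeq start site (GRCm38.p6, the assembly also called mm10). Capitals mark any match to GAGGAAGT, a core bound by PU.1, the Ets factor of macrophages and microglia, to CACGTG, the E-box inside the lysosomal gene element bound by TFEB, or to TGACGT, the core of the CREB element, each on both strands. The Rab32 region is chr10:10558158-10558457 on the minus strand, the Rab31 region is chr17:65772703-65773002 on the minus strand, and the Rab3b region is chr4:108878820-108879119 on the plus strand. The 3 motifs were picked after the values were seen.
Rab32: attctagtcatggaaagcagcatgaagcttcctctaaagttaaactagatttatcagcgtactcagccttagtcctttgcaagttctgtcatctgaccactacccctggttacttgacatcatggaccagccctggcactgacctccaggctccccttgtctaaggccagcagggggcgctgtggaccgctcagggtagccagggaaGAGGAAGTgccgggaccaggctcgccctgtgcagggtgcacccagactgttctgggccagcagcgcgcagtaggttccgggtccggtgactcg
Rab31: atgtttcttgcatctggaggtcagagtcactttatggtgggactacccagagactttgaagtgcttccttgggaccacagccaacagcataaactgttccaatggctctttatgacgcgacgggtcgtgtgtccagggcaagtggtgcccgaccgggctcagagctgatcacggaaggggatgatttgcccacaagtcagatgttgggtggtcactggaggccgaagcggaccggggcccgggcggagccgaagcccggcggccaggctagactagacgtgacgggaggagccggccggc
Rab3b: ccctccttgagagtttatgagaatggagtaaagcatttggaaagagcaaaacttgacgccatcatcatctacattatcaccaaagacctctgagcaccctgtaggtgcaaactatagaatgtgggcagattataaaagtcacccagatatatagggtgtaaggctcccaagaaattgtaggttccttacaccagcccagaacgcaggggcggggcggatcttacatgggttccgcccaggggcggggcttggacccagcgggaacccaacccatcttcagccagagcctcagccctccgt
The Rab32 region held 1 match, GAGGAAGT starting 43 bases before the RefSeq start site, and it overlapped no other motif. In the GENCODE M21 annotation the Rab32 gene begins further upstream, at 10558265, so by that annotation the match lies inside the gene. The other 2 regions held none of the 3 motifs. Among 32851 promoter regions of that length, 3.20% held GAGGAAGT on either strand, 7.15% held CACGTG and 7.51% held TGACGT. The table had 57 regions for 45 of the 54 members, of which 2 held GAGGAAGT, 6 held CACGTG and 6 held TGACGT. A match describes letters and is not a binding site.

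Levels set the scale for the family. Together the Rab rows took 0.529% to 0.568% of the reads in AAV-NDNF libraries and 0.518% to 0.541% in AAV-GFP libraries. Per kilobase of exon (GENCODE M21, all exons of a gene merged), the mean over 6 libraries spanned from 2.41 normalized counts per kb for Rab43 to 3502 for Rab3a, with a median of 213. Rab3a, the vesicle Rab of presynaptic terminals, was followed by Rab7, the late endosome and lysosome Rab, at 2596 per kb, and by Rab2a, which acts between the endoplasmic reticulum and the Golgi, at 2234. The phagocyte-associated members with lower counts sat far down the order, Rab32 at 50.4 and Rab7b at 35.1 per kb. Among the 36 members with a mean of at least 500 normalized counts, the coefficient of variation over all 6 libraries lay between 4.19% for Rab5b and 21.0% for Rab24, with a median of 10.9%. Rab24 is uncertain, since Prelid1 overlaps 62.4% of its merged exons on the opposite strand.

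**Figure D1:**
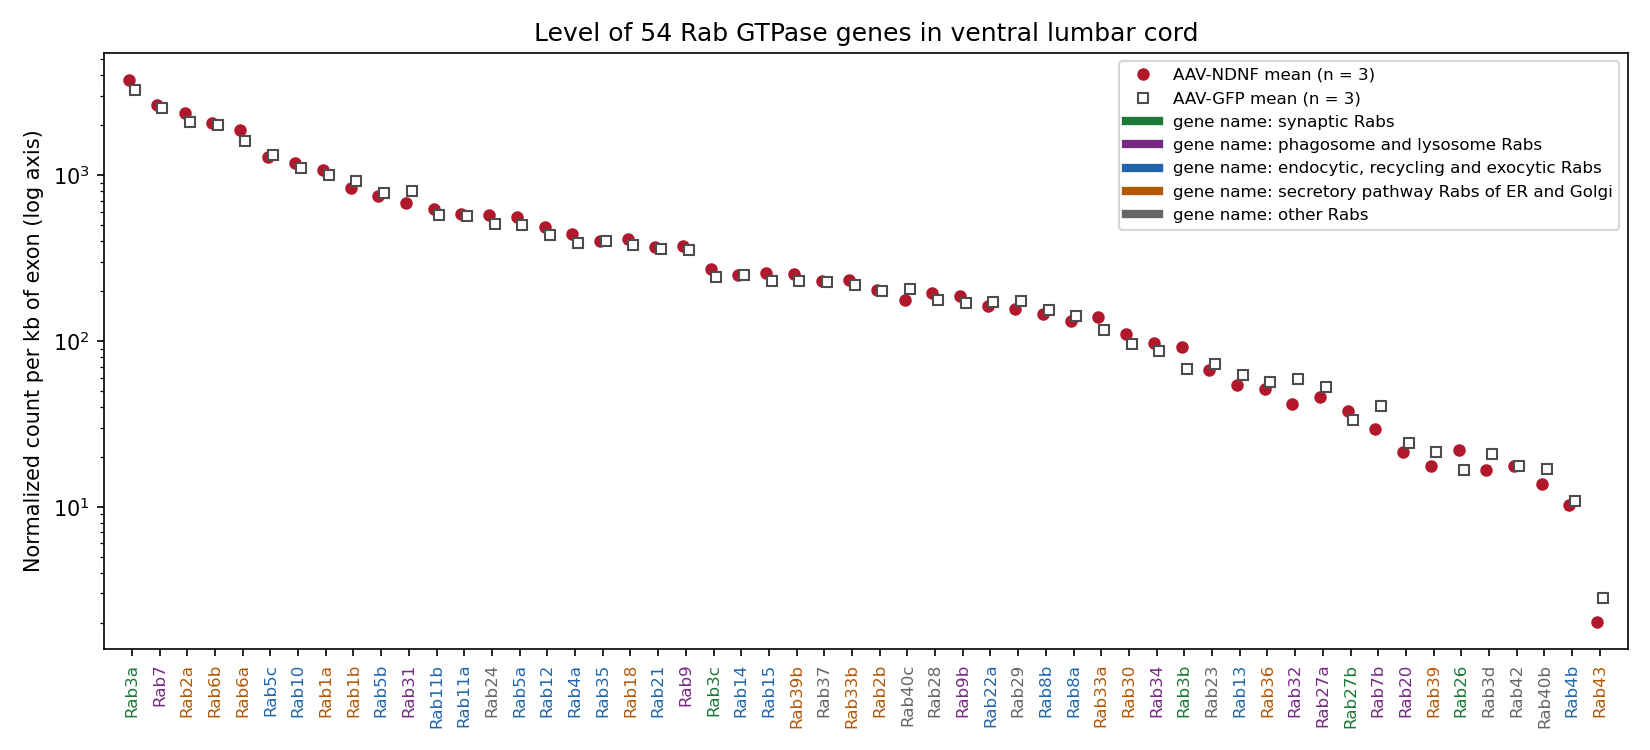
Mean level of each of the 54 Rab genes per kb of merged exon on a log axis, with filled circles for AAV-NDNF and open squares for AAV-GFP (n = 3 each) and gene names coloured by class. Ordered by the mean over all 6 libraries, the genes run from Rab3a at 3502 to Rab43 at 2.41 normalized counts per kb, and the 2 symbols lie close together for most genes.

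All 5 synaptic Rabs had log2 fold changes above 0, from 0.18 to 0.46 with a median of 0.19, where all tested genes had a median of 0.00083 and 50.1% of them lay above 0 and 49.9% below. Rab3d, a Rab3 paralog counted here among the other Rabs, lay on the other side at −0.29 (SE 0.25). A synaptic median with Rab3d added was not computed. All 54 members together had a median of 0.033, with 30 above 0 and 24 below. The 5 are not independent measurements of neurons, since they share the libraries. No member of this class had groups that did not overlap.

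Rab3a (chromosome 8, 70754679 to 70758677, plus strand), which recruits RIM and rabphilin to docked vesicles, had 7083, 8497 and 9424 in AAV-NDNF, against 7694, 6571 and 7498 in AAV-GFP. AAV-NDNF replicate 1 lay below 2 of the AAV-GFP libraries. The log2 fold change was 0.19 (SE 0.13), with a 95% interval of −0.088 to 0.48.

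Rab3b (chromosome 4, 108879063 to 108943324, plus strand), a paralog found on the vesicles of a subset of neurons, had 257, 367 and 351 in AAV-NDNF, against 253, 262 and 199.7 in AAV-GFP. Replicates 2 and 3 of AAV-NDNF were high, while replicate 1 lay between 2 AAV-GFP values, so the groups overlapped. Its mean was 325 ± 59.2 in AAV-NDNF and 238 ± 33.5 in AAV-GFP (SD, n = 3 each), a log2 fold change of 0.44 (SE 0.18), with a limma adjusted p of 0.997. The opposite-strand gene 8030443G20Rik overlaps 317 bases of its merged exons.

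Rab3c, the third neuronal paralog, had 3458, 3401 and 3023 in AAV-NDNF, against 3248, 2223 and 3307 in AAV-GFP. Its log2 fold change was 0.19 (SE 0.15), and 0.0048 without the low AAV-GFP replicate 2. Rab26, which marks synaptic vesicles bound for autophagy, had 63.1, 57.4 and 67.9 in AAV-NDNF, against 57.1, 27.4 and 58.7 in AAV-GFP. Again AAV-GFP replicate 2 was the low library, and the log2 fold change of 0.46 (SE 0.33) was 0.11 without it. Traf7 overlaps 9.36% of the merged exons of Rab26 on the same strand. Rab27b, which acts in regulated secretion, had 315, 487 and 405 in AAV-NDNF, against 379, 267 and 419.8 in AAV-GFP, with a log2 fold change of 0.18 (SE 0.20).

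That library also had the fewest dorsal horn transcripts and low values of the neuron markers other than Nefl. Nefl stood at 41984 there, against 37199 and 37560.5 in the other AAV-GFP libraries. The oligodendrocyte sum of AAV-GFP replicate 2 was the highest (676527, against 504199 to 545663 in AAV-NDNF and 489485 to 490615 in the other AAV-GFP libraries). Its astrocyte sum was also the highest (202426), and its mitochondrial share of reads the lowest (5.28%). Its motor neuron markers summed to 5589.9, the highest of the AAV-GFP group, although Isl1 was lowest there (34.2, against 67.8 and 73.7). Relative to the AAV-GFP mean on the log2 scale, the median over the 6 neuron markers (Snap25, Syt1, Rbfox3, Nefl, Stmn2, Syp) was 0.029, 0.24 and 0.32 in AAV-NDNF, against 0.068, −0.15 and 0.087 in AAV-GFP. All 6 neuron markers were above 0 in the group comparison, with a median log2 fold change of 0.20 beside 0.19 for the synaptic Rabs, and none was at 0 in any library. Their summed level was 93848 to 116574 in AAV-NDNF and 89763 to 95152 in AAV-GFP libraries. Without AAV-GFP replicate 2 the median log2 fold change of the synaptic Rabs was 0.11 and that of Rab27b −0.012. The part of the neuron markers in the synaptic Rab values was not tested.

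Rabs of phagosomes and lysosomes split among themselves. Of the 10 genes listed, 9 were members, Rab38 being too low. Their log2 fold changes ran from −0.50 to 0.18 with a median of −0.20, with 5 below 0 and 4 above. Rab32, Rab7b and Rab31 had AAV-NDNF libraries that all lay below the AAV-GFP libraries. In the whole family the groups did not overlap at 7 of 54 members (13.0%), against 9.75% of all tested genes; 6 of the 7 were lower in AAV-NDNF (11.1%, against 5.5% of all genes) and 1 was higher (1.85%, against 4.26%).

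Rab32 (chromosome 10, 10545002 to 10558265, minus strand), which builds lysosome-related organelles and takes part in macrophage defence, had 78.2, 102 and 113 in AAV-NDNF, against 141, 130.0 and 142 in AAV-GFP. The highest AAV-NDNF library thus lay below the lowest AAV-GFP library. Means were 97.8 ± 17.8 in AAV-NDNF and 138 ± 6.70 in AAV-GFP (SD, n = 3 each), and the log2 fold change was −0.50 (SE 0.21), with a 95% interval of −0.97 to −0.039 and a limma adjusted p of 0.997.

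Rab7b (chromosome 1, 131688695 to 131715439, plus strand), a Rab of late endosomes that carries cargo back to the trans-Golgi and limits Toll-like receptor signalling in macrophages, had 126, 145 and 139 in AAV-NDNF, against 193, 215 and 155 in AAV-GFP. The gap between AAV-NDNF replicate 2 and AAV-GFP replicate 3 was the narrow one. Means were 137 ± 9.76 in AAV-NDNF and 188 ± 30.4 in AAV-GFP (SD, n = 3 each), a log2 fold change of −0.44 (SE 0.19) with a limma adjusted p of 0.997. Rab7b has no entry in the promoter table.

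Rab31 (chromosome 17, 65651729 to 65772752, minus strand), a relative of Rab5 that works between the trans-Golgi, endosomes and forming phagosomes, had 2683, 2673 and 2451 in AAV-NDNF, against 3145, 3139.9 and 2915 in AAV-GFP. Here the libraries of each group lay close together. The log2 fold change was −0.24 (SE 0.10), with a 95% interval of −0.46 to −0.0098.

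Rab7, the central Rab of late endosomes and lysosomes, lay near 0. It had 6421, 7355 and 7023 in AAV-NDNF, against 6617, 6504 and 6739 in AAV-GFP, a log2 fold change of 0.065 (SE 0.10, 95% interval −0.16 to 0.29). The AAV-NDNF libraries lay on both sides of the AAV-GFP range. Rab9, which returns mannose 6-phosphate receptors from late endosomes to the trans-Golgi, had 531, 632 and 794 in AAV-NDNF, against 680.3, 567 and 606 in AAV-GFP. Its paralog Rab9b had 696, 817 and 725 in AAV-NDNF, against 742, 525 and 744 in AAV-GFP. The groups overlapped for both (log2 fold changes 0.063, SE 0.16, and 0.17, SE 0.15), and that of Rab9b was 0.0022 without AAV-GFP replicate 2.

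Rab27a, which docks secretory lysosomes at the plasma membrane, had 163, 207 and 164 in AAV-NDNF, against 202, 231 and 181 in AAV-GFP (log2 fold change −0.20, SE 0.18). Rab20, a Rab of maturing macrophage phagosomes, had 38.7, 28.2 and 21.9 in AAV-NDNF, against 40.2, 34.2 and 26.7 in AAV-GFP, a log2 fold change of −0.20 that is smaller than its SE of 0.36. A transcript on the opposite strand, E230013L22Rik, overlaps 25.6% of the merged exons of Rab20, and counting by strand is not stated. Rab34, which positions lysosomes near the Golgi, had 217, 242 and 238 in AAV-NDNF, against 246, 200.3 and 173 in AAV-GFP (log2 fold change 0.18, SE 0.18). The groups overlapped for all 3 genes.

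**Figure D2:**
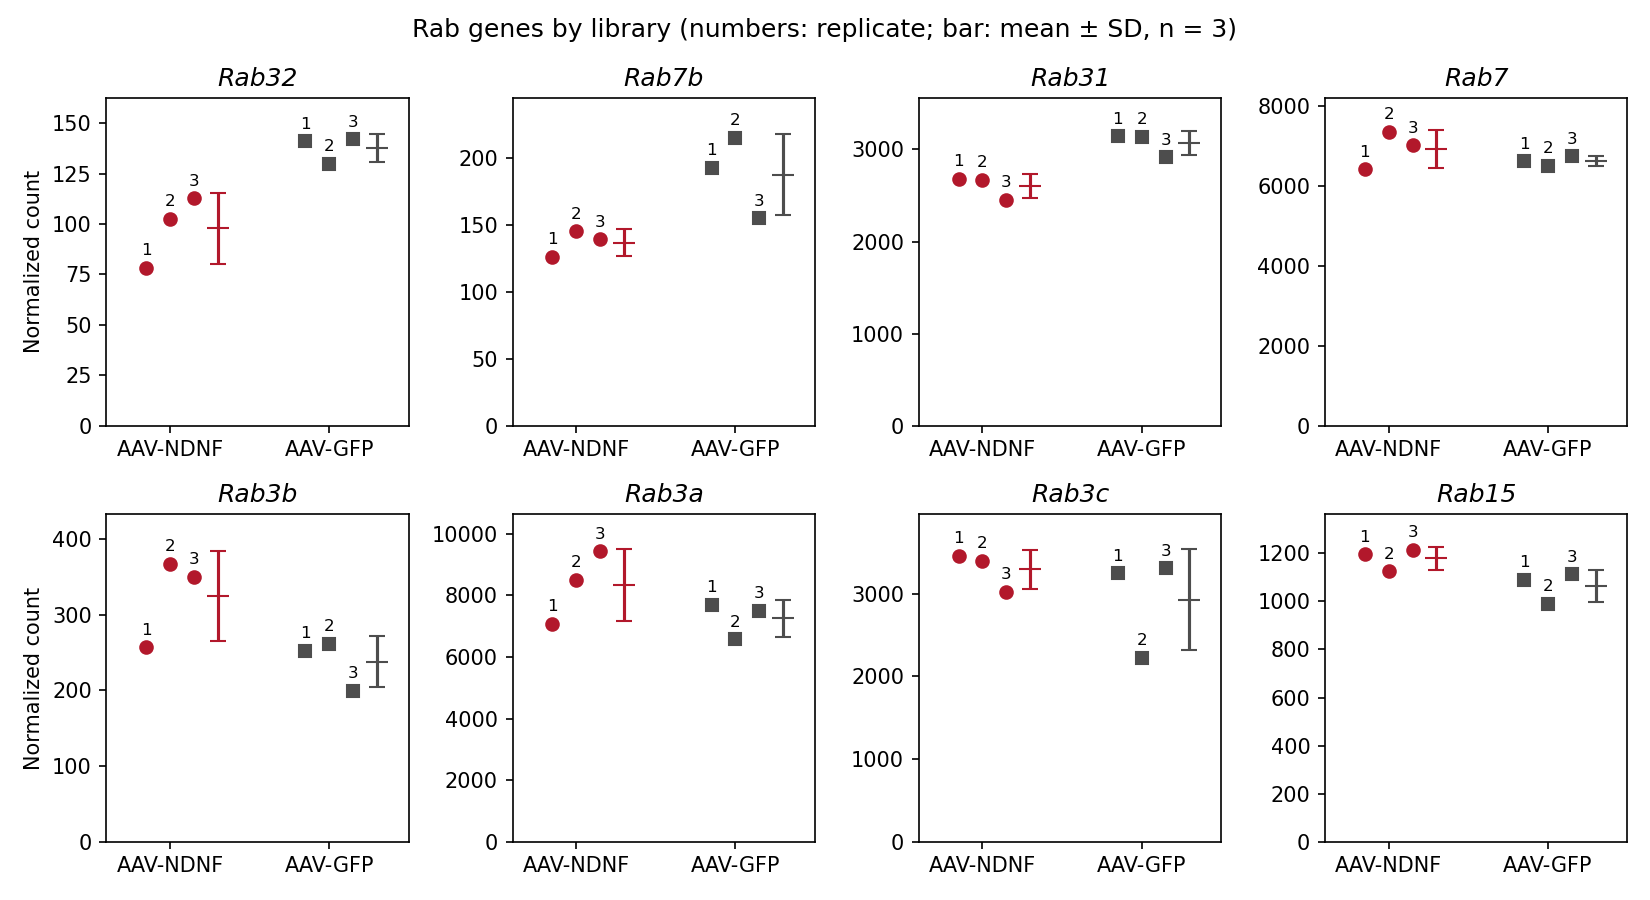
Normalized counts of 8 Rab genes in each library, with AAV-NDNF (circles) left of AAV-GFP (squares), replicate numbers above the points and a bar for the mean ± SD (n = 3). For Rab32, Rab7b and Rab31 each AAV-NDNF point lies below each AAV-GFP point, for Rab15 each lies above, and for Rab7, Rab3b, Rab3a and Rab3c the groups overlap.

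Microglial genes were lower beside these values. In limma 0 of the markers below were called after adjustment, where 0 of all 17480 tested genes were called. DESeq2 calls of the markers are not reported here. The 5 microglia markers (Cx3cr1, P2ry12, Tmem119, Csf1r, Aif1) had log2 fold changes below 0 in 5 of 5 cases, with a median of −0.27. They summed to 5930.4 to 6261 normalized counts in AAV-NDNF and 7833 to 8249 in AAV-GFP libraries. The groups overlapped for P2ry12 (log2 fold change −0.099, SE 0.16) and Tmem119. They did not overlap for the other 3 (60% of the list, against 5.5% of all tested genes). The 6 markers of phagocytic microglia (Cd68, Itgax, Gpnmb, Trem2, Lpl, Cst7) were below 0 in 6 of 6 cases, with a median of −0.71, and summed to 2733 to 3449 in AAV-NDNF and 4368 to 4698 in AAV-GFP libraries. The groups overlapped for Lpl and Cst7 and not for the other 4 (66.7%, against 5.5% of all tested genes). No marker of either list was at 0 in any library. Other markers lay on the same side, with 5 of 5 endothelial markers (median −0.20) and 5 of 5 astrocyte markers (median −0.12) below 0. Endothelial markers summed to 3299, 3111 and 2161 in AAV-NDNF, where replicate 3 was low, against 3165 to 3463 in AAV-GFP libraries. Astrocyte markers summed to 161236, 136201 and 141062 in AAV-NDNF, against 159360, 202426 and 161538 in AAV-GFP, where replicate 2 was high. For both lists the sums overlapped between the groups. The part of any of these lists in the values of Rab32, Rab7b and Rab31 was not tested.

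**Figure D3:**
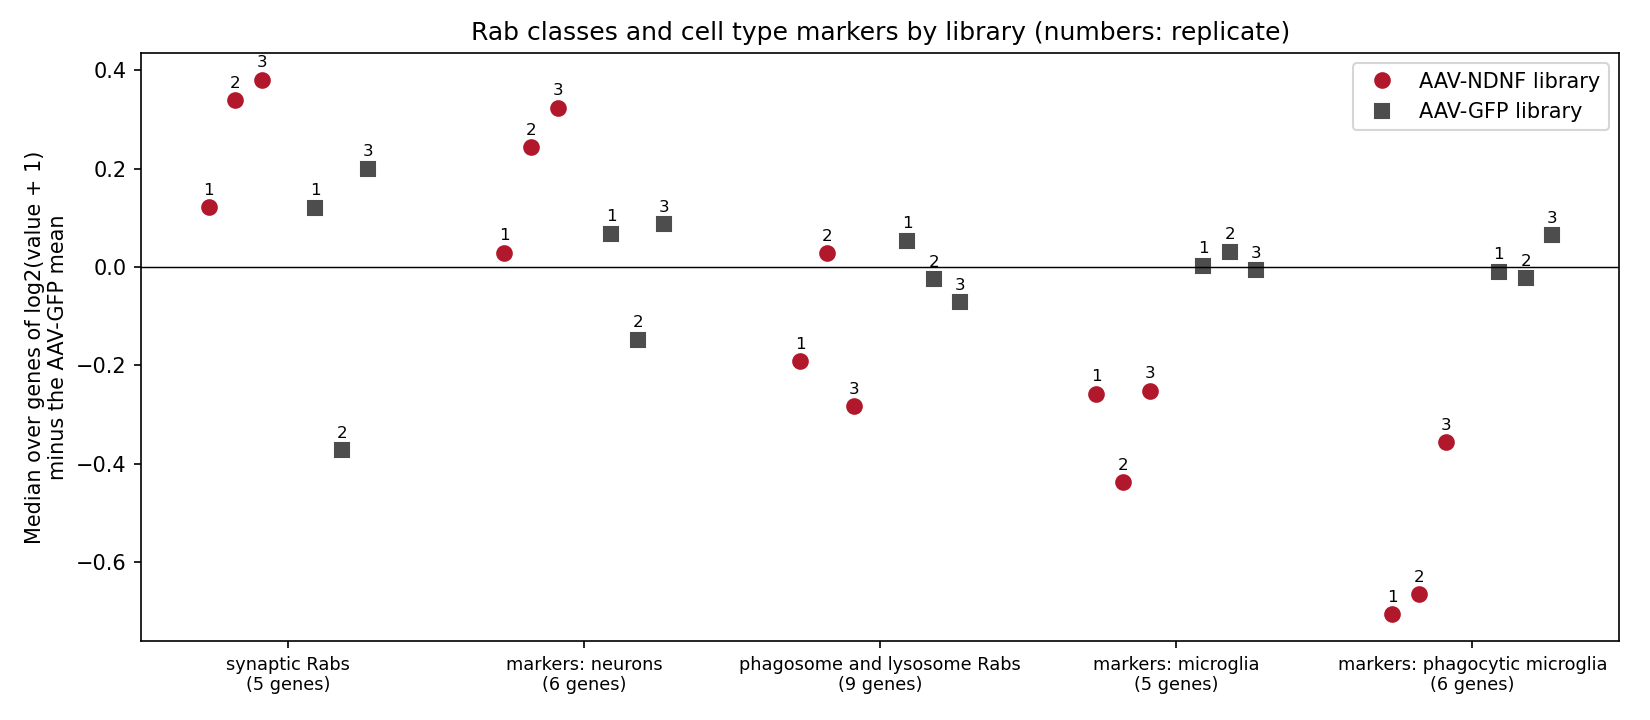
Median over the genes of a list of log2(value + 1) minus the AAV-GFP mean, 1 point per library, for the synaptic Rabs (5 genes), neuron markers (6), phagosome and lysosome Rabs (9), microglia markers (5) and phagocytic microglia markers (6). The synaptic Rabs and neuron markers are lowest in AAV-GFP replicate 2, and in both microglial lists each AAV-NDNF library lies below each AAV-GFP library.

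Set side by side, the class median of the phagosome and lysosome Rabs lay 0.39 below that of the synaptic Rabs on the log2 scale (−0.20 against 0.19). By library, the median of the phagosome and lysosome Rabs relative to the AAV-GFP mean was −0.19, 0.028 and −0.28 in AAV-NDNF, against 0.053, −0.025 and −0.072 in AAV-GFP, and that of the synaptic Rabs was 0.12, 0.34 and 0.38 in AAV-NDNF, against 0.12, −0.37 and 0.20 in AAV-GFP. The groups overlapped for both classes. The gap between the classes stood at −0.59 to −0.22 when single libraries were left out, and it was smallest without AAV-GFP replicate 2. The gap also depends on which genes form the class: with Rab5a, Rab5b and Rab5c, counted here as endocytic, added to the phagosome and lysosome Rabs, an alternative chosen after the data were seen, that median was −0.044 over 12 genes and the gap −0.24. The lists hold few genes, so these medians are a description.

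The paralogs of one number offer a view that does not depend on how libraries were scaled, since each share is taken within a library. There were 14 number families with 2 or more members, 31 genes in all, and the shares of reads did not overlap between the groups in 1 of them. The 9.75% of all tested genes free of overlap counts single genes, so it is not a background for shares within families. No such background was computed, and the values of this 1 family are given as a description. Rab7b made up 1.93%, 1.94% and 1.94% of the Rab7 and Rab7b reads in AAV-NDNF, against 2.83%, 3.20% and 2.25% in AAV-GFP. The 3 AAV-NDNF shares nearly coincided, while those of AAV-GFP spread out. Within the Rab3 family Rab3a took 65.2% to 73.3% of reads in AAV-NDNF and 67.6% to 71.7% in AAV-GFP, and Rab3b took 2.37% to 2.98% in AAV-NDNF and 1.80% to 2.86% in AAV-GFP. Rab27a took 28.8% to 34.2% of the Rab27 reads in AAV-NDNF and 30.1% to 46.4% in AAV-GFP, where replicate 2 was high. Rab6a, the widely expressed Golgi Rab, took 34.5%, 40.6% and 46.9% beside its neuronal paralog Rab6b in AAV-NDNF, against 37.2%, 35.2% and 40.2% in AAV-GFP.

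Rabs of endocytosis, recycling and exocytosis formed the class nearest to 0. Of 19 genes listed, 17 were members, with log2 fold changes from −0.22 to 0.17, a median of −0.0089, 8 above and 9 below 0, and none at an unadjusted p under 0.05. Rab15, a Rab of early and recycling endosomes with high expression in neurons, had 1196, 1124 and 1215 in AAV-NDNF, against 1089, 990.0 and 1113 in AAV-GFP. It was the single member whose AAV-NDNF libraries all lay above the AAV-GFP libraries (log2 fold change 0.15, SE 0.11). Rab5a, the master Rab of early endosomes, had 2535, 3085 and 3194 in AAV-NDNF, against 2704, 2557 and 2683 in AAV-GFP, while its paralogs Rab5b and Rab5c differed by −0.055 and −0.033. Rab4a, of rapid recycling, had 642, 784 and 909 in AAV-NDNF, against 703, 675 and 669.7 in AAV-GFP. In both Rab5a and Rab4a, AAV-NDNF replicate 1 was the lowest library and replicate 3 the highest. Rab12, a substrate of the Parkinson's kinase LRRK2, differed by 0.17 (SE 0.13).

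Rabs of the secretory pathway lay mostly above 0, with 0 at an unadjusted p under 0.05. Of 15 genes listed 14 were members, 10 with log2 fold changes above 0 and 4 below, from −0.47 to 0.28 with a median of 0.10. Rab6a had 6122, 7316 and 7639 in AAV-NDNF, against 5847, 5710 and 6512 in AAV-GFP. AAV-NDNF replicate 1 lay inside the AAV-GFP range, and the log2 fold change was 0.22 (SE 0.12). The opposite-strand gene Mrpl48 overlaps 19.0% of its merged exons. Rab1b, which starts transport out of the endoplasmic reticulum, had 1868, 1947 and 1921 in AAV-NDNF, against 2074, 2084 and 2127 in AAV-GFP, so the groups did not overlap at a log2 fold change of −0.13 (SE 0.10). Its paralog Rab1a differed by 0.093 (SE 0.13). Rab30, of the Golgi, differed by 0.19 (SE 0.12) and Rab2a by 0.16 (SE 0.14). Rab43, also without overlap, had 7.88 to 13.5 in AAV-NDNF, against 13.9 to 16.6 in AAV-GFP, an uncertain value because Gm45140 shares 75.4% of its merged exons on the same strand.

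The other 9 members had a median of −0.15, with 6 below 0 and 3 above. Rab23, a negative regulator of Hedgehog signalling named here after its values were seen, had 511, 563 and 582 in AAV-NDNF, against 623, 597 and 589 in AAV-GFP, without overlap (log2 fold change −0.13, SE 0.12). Rab40c, which joins a ubiquitin ligase through its SOCS box, had 548, 524 and 566 in AAV-NDNF, against 603, 767 and 547 in AAV-GFP. It differed by −0.21 (SE 0.14), with replicate 2 the high AAV-GFP library, and by −0.32 to −0.073 over the omissions of 1 library. Rab3d, a Rab3 paralog not counted here as synaptic, differed by −0.29 (SE 0.25). Across the family the 95% interval of the log2 fold change lay within ±0.5 for 32 of 54 members, so changes beyond that size are outside the interval for those genes, while the low members such as Rab42 (interval −1.58 to 1.27) allow either direction. AAV-NDNF replicate 3 held the highest value for 23 of the 54 members and AAV-NDNF replicate 1 the lowest for 17. The same counts over all tested genes were not computed, so whether they are particular to Rab genes was not tested.

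**Figure D4:**
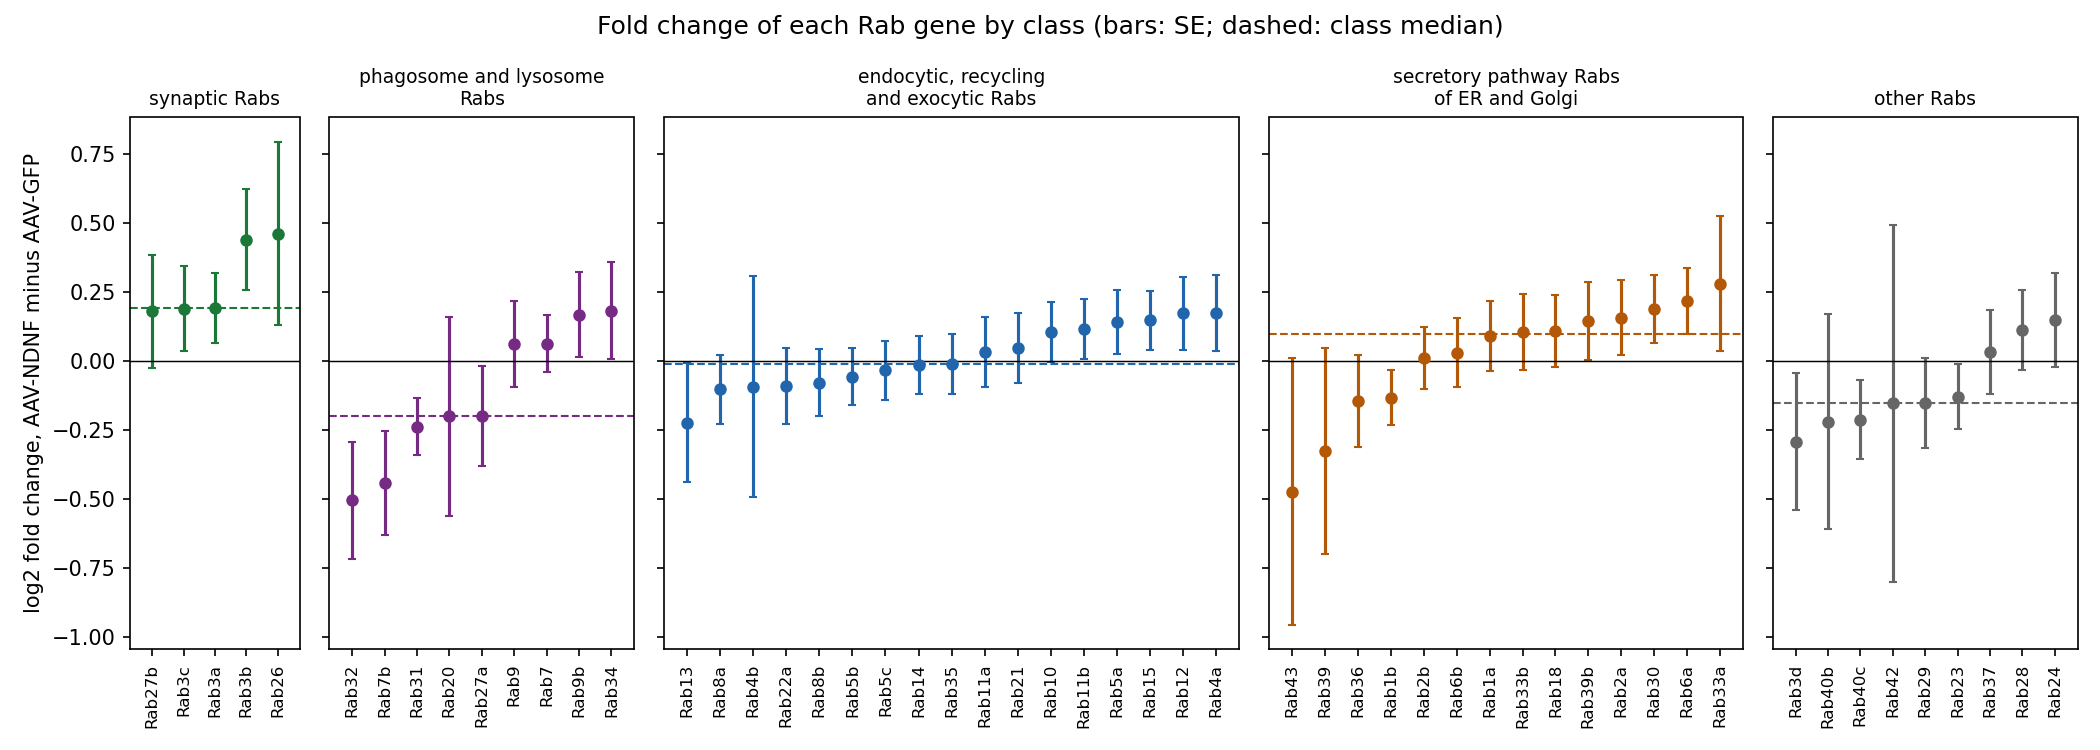
log2 fold change (AAV-NDNF minus AAV-GFP) of each of the 54 Rab genes with its SE from limma, in 5 panels by class, each with a dashed line at the class median. The 5 synaptic Rabs lie above 0 (median 0.19), the phagosome and lysosome Rabs run from −0.50 to 0.18 (median −0.20), and the endocytic class centres on −0.0089.

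Genes that load, switch and read the Rabs were counted in 5 lists. All 7 genes counted for prenylation and membrane extraction had log2 fold changes above 0, between 0.014 and 0.12, with 0 at an unadjusted p under 0.05. Gdi2, a widely expressed GDP dissociation inhibitor, had 4489, 5289 and 5973 in AAV-NDNF, against 4955, 4491 and 5086 in AAV-GFP. The groups overlapped. Its log2 fold change was 0.11 (SE 0.13), that of Rabif, a Rab chaperone, 0.11 (SE 0.13), and that of Chm, an escort protein that presents Rabs for prenylation, 0.12 (SE 0.15). Among 34 GTPase activating proteins tested, 0 had an unadjusted p under 0.05, 20 lay above 0 and 14 below. The smallest p were those of Tbc1d16 (log2 fold change −0.26), Tbc1d7, which also serves as a subunit of the tuberous sclerosis complex (0.27), and Tbc1d2b (−0.27).

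Exchange factors lay mostly below 0. Of 28 tested, 3 had an unadjusted limma p under 0.05, all lower in AAV-NDNF, or 10.7% of the list where 3.53% of all genes were so, and 19 lay below 0, with a list median of −0.092. The groups did not overlap for 4, all lower in AAV-NDNF (14.3% of the list, against 5.5% of all genes), and 0 of the list were called. Rin2, an exchange factor for Rab5, had 655, 671 and 689 in AAV-NDNF, against 899, 846 and 960.2 in AAV-GFP. Its AAV-NDNF libraries were tightly grouped and all below the AAV-GFP libraries, with a log2 fold change of −0.42 (SE 0.11) and a limma adjusted p of 0.53. Rin3, which loads Rab5 and Rab31, had 75.7, 57.4 and 41.6 in AAV-NDNF, against 104, 102 and 96.1 in AAV-GFP (log2 fold change −0.82, SE 0.27, limma adjusted p 0.819). Rab3il1, an exchange factor for Rab8 first described with Rab3a, had 252, 334 and 273 in AAV-NDNF, against 357, 385 and 357 in AAV-GFP. Its log2 fold change was −0.36 (SE 0.15), and the groups did not overlap for Rin3 or Rab3il1 either.

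Effectors showed 0 genes at an unadjusted limma p under 0.05 in both lists. Of 16 synaptic effectors listed 14 were tested, 8 above 0 and 6 below, with a median of 0.056. Syn1 (synapsin I), a vesicle phosphoprotein that binds Rab3a, had 5016, 5003 and 4184 in AAV-NDNF, against 4490.5, 3788 and 4545 in AAV-GFP. Sytl2, a Rab27 effector, differed by 0.30 (SE 0.18), and by 0.15 to 0.53 over the omissions of 1 library. Its AAV-GFP replicate 2 (1522) lay above each AAV-NDNF library. Doc2b, a calcium sensor for release, differed by −0.87 (SE 0.50) with 21.9 to 63.9 in AAV-NDNF and 33.2 to 112 in AAV-GFP. That value ran from −1.43 to −0.45 over the omissions of 1 library. Of 27 endosome, lysosome and phagosome effectors listed 26 were tested, 13 on each side of 0, with a median of −0.0024. Appl2, an endosomal adaptor of Rab5, had 2659, 2564 and 2214 in AAV-NDNF, against 2775, 3203 and 2714 in AAV-GFP, and Rabep1 (rabaptin-5), which ties Rab5 to Rab4, had 1889, 1903 and 2143 in AAV-NDNF, against 1717, 1801 and 1726 in AAV-GFP. Both were without overlap, in opposite directions (log2 fold changes −0.23 and 0.18). These were 2 of the 26 tested (7.69%), no more than the 9.75% of all tested genes. Myo7a, a myosin linked to Rab27a, differed by −0.30 (SE 0.18).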

How the data were processed

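Polyadenylated RNA of 6 samples was sequenced. Tools named in the submitters' processing notes are HISAT2, cutadapt, DESeq2 and HTSeq, with the build mm10; their versions, the annotation and the strand setting are not given in the sources used here. Per the file headers and values, the deposited per-library columns are a normalized signal, gene counts that the authors divided by 1 size factor per library (100% of values are whole multiples of 1 read, tolerance 0.001). The deposited table also holds the authors' log2 fold changes, a Wald score and p-values, of which only 1 p-value is given, named as theirs. Log2(value + 1) was fitted over 17480 genes with limma 3.58.1 (trend, robust; R 4.3.3), two-sided, with Benjamini-Hochberg adjustment and 95% intervals. edgeR 4.0.16 and DESeq2 1.42.0 were run on recovered reads as alternatives. Scripts were tested on simulated data. Plots used matplotlib 3.10.9.

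Members, classes and lists were chosen with earlier results of these data known. The named genes are all synaptic and phagosome or lysosome Rabs, 10 further Rabs and up to 3 genes of each regulator list by smallest p, Ndnf and Sod1, and the Rabs with the highest levels or nearest the limit on the mean; Rab23, paralogs of named members and other genes outside this rule were named after their values were seen. Sequences are from RefSeq (GRCm38.p6), coordinates from GENCODE M21 (mm10), which held all 54 members. Some genes of the lists are not reported here and are in none of the list counts. Each p-value sets a group difference against the spread between libraries, which limma, edgeR and DESeq2 estimate with information from all genes.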

Additional observations from a re-analysis of the deposited data

How the results depend on the processing

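Across 15 alternatives (2 scalings, 2 filters, 2 pseudocounts, edgeR, DESeq2, a replicate block and 6 omissions of 1 library), 0 Rab genes were called. The sign held for all 24 named Rab genes in the 9 alternatives with 6 libraries, and for 22 in all 15. Rab27b ran from −0.012 to 0.35 over the omissions, Rab9 from −0.089 to 0.20, Chm from −0.021 to 0.19 and Sod1 from −0.19 to 0.18. The count of 4 Rab genes at an unadjusted p under 0.05 was 2 without a filter, 1 with the replicate block and 0 to 6 over the omissions; it was 0 without AAV-NDNF replicate 2 or AAV-GFP replicate 1, 1 (Rab7b) when AAV-GFP replicate 3 was omitted, and 6 with AAV-NDNF replicate 1 omitted, namely Rab31 lower and Rab3a, Rab3b, Rab4a, Rab5a and Rab6a higher. The 818 such genes among all tested were 1242 without a filter and 532 to 1513 over the omissions. Genes called among all tested, 0 in limma, were 3 without a filter, 55 with DESeq2, 6 with the replicate block and 0 to 43 over the omissions. The phagosome and lysosome median ran from −0.27 to −0.067 (−0.067 without AAV-GFP replicate 1, −0.11 omitting AAV-GFP replicate 2, −0.089 without AAV-NDNF replicate 3) and the synaptic median from 0.11 to 0.35 (0.35 without AAV-NDNF replicate 1, 0.31 without AAV-GFP replicate 3, 0.11 without AAV-GFP replicate 2). With the Rab5 genes added to the class, chosen after seeing the data, the phagosome and lysosome median was −0.044. Over the omissions the log2 fold change moved over 1.5 times for 18 of the 24 named Rab genes, though not for Rab32, Rab7b, Rab31 or Rab3b. The cause was not tested. The correlation of deviations between same-numbered libraries was −0.09, 0.0485 and 0.0801, so the replicate numbers are not shown to pair the samples. With 3 libraries a group, Rab genes with low counts allow changes in either direction.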
